A study of Rattus norvegicus with 6 samples.

Results

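The miR-130/miR-301 and miR-148/miR-152 families were followed in 6 small RNA libraries of rat cortical neurons. Their 7 members were taken by name from the count files: rno-miR-130a-3p, rno-miR-130b-3p, rno-miR-301a-3p and rno-miR-301b-3p of the first family, and rno-miR-148b-3p, rno-miR-152-3p and the opposite arm rno-miR-148b-5p of the second. All 7 of 7 were present among the 649 mature miRNAs counted, and all 7 had a mean level of 10 RPM or more, RPM being reads per 1000000 assigned reads, in control or in BDNF samples, as did 336 miRNAs in all. miR-301b-3p met this limit through the control samples alone, with means of 12.8 RPM in control and 9.56 RPM in BDNF samples. The neurons were dissociated from the cortex of Sprague-Dawley rat embryos at embryonic day 18 and had been in culture for 7 days by the sample labels, whereas a figure legend for these libraries gives 6. The 3 BDNF libraries came from neurons given 100 ng/ml brain-derived neurotrophic factor, a secreted growth factor that drives dendrite growth, for 20 min. The 3 control libraries came from neurons given its vehicle, 0.1% BSA, for the same time. Embryos of both sexes were used, and from the fourth day in vitro all cortical cultures also received fluorodeoxyuridine with uridine, which stops the division of non-neuronal cells.

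A miRNA is a short RNA that guides an Argonaute protein to messenger RNAs that pair with its seed, bases 2 to 8 from its 5′ end. Each precursor hairpin can yield a product from its 5′ arm (5p) and another from its 3′ arm (3p), and usually one of them is kept and the other degraded. miRNAs with the same seed form a family, because they can pair with the same sites. The miR-130/miR-301 family is best known from blood vessels, fat cells and tumours, and the miR-148/miR-152 family for targeting the DNA methyltransferase DNMT1. BDNF acts on neurons through the receptor TrkB, and the comparison asked whether a brief exposure alters the amount of mature miRNAs.

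RefSeq held the mature sequence of 5 of the 7 members, on the rat build GRCr8. They are shown because the families are defined by their first bases. The seed is in capitals.

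miR-130a-3p: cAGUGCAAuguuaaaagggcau
miR-130b-3p: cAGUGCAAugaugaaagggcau
miR-301b-3p: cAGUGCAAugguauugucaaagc
miR-148b-3p: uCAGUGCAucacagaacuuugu
miR-152-3p: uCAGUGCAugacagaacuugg
miR-148a-3p: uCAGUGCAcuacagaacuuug

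The last of these, rno-miR-148a-3p, is not one of the 7 members. It is given as the remaining carrier of the miR-148/miR-152 seed in RefSeq, which held 582 of the 649 miRNAs counted. Read 1 base apart, the seeds of the families overlap. The run CAGUGCA fills bases 1 to 7 of the 3 miR-130/miR-301 sequences and bases 2 to 8 of the 3 miR-148/miR-152 sequences. Of 692 rat mature sequences in RefSeq, only these 6 (0.867%) held that run within their first 9 bases. The miR-19 family is shifted in the other direction, with the seed GUGCAAA.

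Within a family the sequences differ mainly behind the seed. Counted from 1 at the 5′ end, miR-130a-3p and miR-130b-3p differed at 2 of 22 bases, U11A and A13G. miR-148b-3p and miR-152-3p differed at 2 of 21 bases, C10G and U20G, and miR-148b-3p and miR-148a-3p at 2 of 21, U9C and C10U. miR-301b-3p differed from miR-130a-3p at 9 of 22 bases. The authors' assignment of reads allowed 1 mismatch and up to 3 bases trimmed from an end. A read of miR-148b-3p shortened by 3 bases differs from miR-152-3p at 1 base, and the share of such reads was not tested.

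The genes of the members are spread over the genome (GRCr8). miR-130a-3p is encoded at chr3:90229240-90229261 on the minus strand, with no other RefSeq gene around its hairpin. miR-301b-3p (chr11:97384077-97384099) and miR-130b-3p (chr11:97384430-97384451) are both on the plus strand, and their hairpins are 269 bases apart inside the protein-coding gene 2610318N02Rikl. The hairpin of miR-301a lies inside Ska2 and the overlapping Prr11 on chromosome 10. miR-152-3p (chr10:82329435-82329455, plus strand) lies inside Copz2, and miR-148b-3p (chr7:136299930-136299951, plus strand) inside Copz1. Copz1 and Copz2 encode the zeta subunits of the COPI vesicle coat, so the last pair of miRNAs sits in paralogous host genes. The gene table used does not separate introns from exons.

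The libraries held between 10374120 and 12533029 assigned reads, so that 10 RPM was between 104 and 125 reads. The neuron-enriched miRNAs checked were all present, 9 of 9 above 10 RPM, with a summed level of 346885 to 399760 RPM in control and 389553 to 418306 RPM in BDNF samples, most of it miR-9a-5p. Of 5 microglial and blood miRNAs, 4 were listed and none reached 10 RPM, with sums of 6.38 to 7.18 RPM in control and 4.11 to 9.22 RPM in BDNF samples. The vessel list summed to 143 to 204 RPM in control and 133 to 196 RPM in BDNF samples, with 3 of 4 above 10 RPM and miR-145-5p near 0. The list of astrocytes and other glia summed to 5587 to 7296 RPM in control and 5616 to 7495 RPM in BDNF samples, nearly all of it miR-21-5p, and the oligodendrocyte list to 29.7 to 35.0 RPM and 33.9 to 35.5 RPM. The ranges of the groups overlapped for every list, and the part of other cells in the results was not tested. In such bulk cultures, fewer cells that make a miRNA and less of it per cell cannot be told apart.

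The 7 members covered a wide range of levels in the same order in all 6 libraries. miR-148b-3p was far the most abundant, with a lowest, median and highest level of 2992, 3728 and 4745 RPM, and ranked 30 of the 649 miRNAs by mean RPM. miR-130a-3p followed at 161, 186 and 225 RPM, between 13.3 and 29.4 times below miR-148b-3p in the same library. miR-152-3p, at 56.9, 69.3 and 85.5 RPM, and miR-301a-3p, at 36.1, 43.2 and 46.8 RPM, came next. The levels of these 4 did not overlap with those of the next in order. miR-148b-5p lay at 20.5, 22.4 and 28.6 RPM, miR-130b-3p at 10.5, 14.7 and 21.9 RPM and miR-301b-3p at 6.93, 10.8 and 16.9 RPM, near the limit of the filter. The range of miR-130b-3p overlapped with that of miR-148b-5p and with that of miR-301b-3p, while miR-148b-5p and miR-301b-3p did not overlap. In each single library, miR-148b-5p was above miR-130b-3p and miR-130b-3p above miR-301b-3p.

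**Figure D1:**
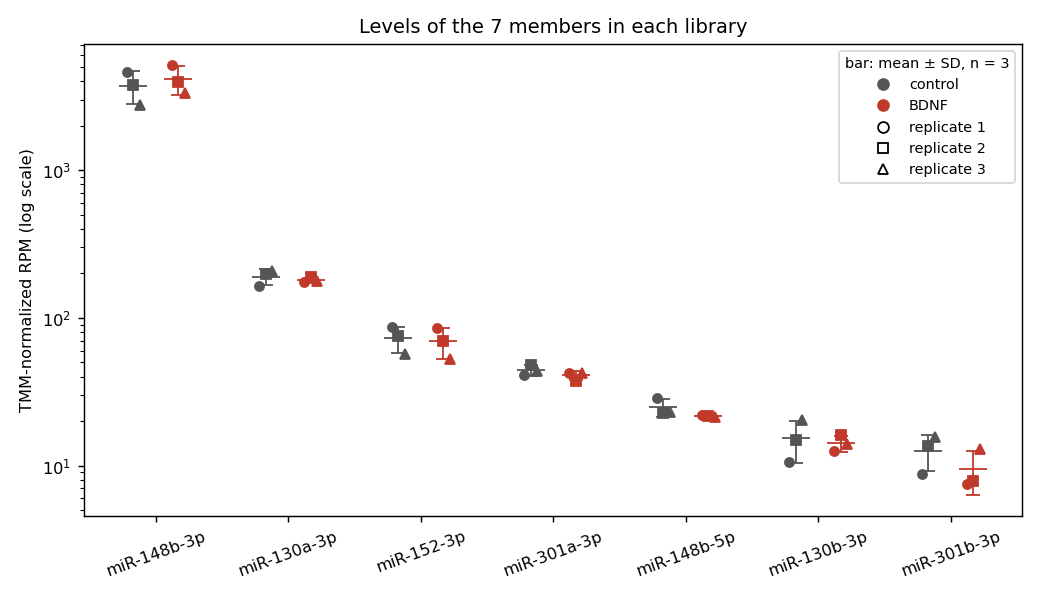
TMM-normalized RPM (log axis) of the 7 members in each library, grey for control and red for BDNF, with the symbol giving the replicate number and bars the mean ± SD (n = 3). miR-148b-3p stands above all others, between 2768 and 5116 normalized RPM, and differences within a member look small on this axis. For miR-301b-3p in replicate 2, the points are at 13.5 in control and 7.86 with BDNF.

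Most reads of the miR-130/miR-301 family came from a single miRNA. miR-130a-3p made up 71.7 to 75.5% of the miR-130/miR-301 3p reads in the 6 libraries, miR-301a-3p 14.9 to 18.2%, miR-130b-3p 4.73 to 7.05% and miR-301b-3p 3.15 to 5.44%. The 4 together took 0.0219 to 0.0310% of all reads. miR-148b-3p and miR-152-3p together took 0.305 to 0.482% of all reads, and miR-152-3p was a minor part of them, at 1.54 to 2.01%. With miR-148a-3p included, the miR-148/miR-152 seed was shared almost evenly. miR-148b-3p then contributed 50.4 to 54.3%, miR-148a-3p 44.8 to 48.8% and miR-152-3p 0.790 to 1.05% of the reads. The miR-148/miR-152 seed thus outnumbered that of miR-130/miR-301 in every library.

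Several members differed between the replicate numbers in the same way in both conditions. For miR-148b-3p, the normalized RPM were 4633, 3776 and 2768 in control replicates 1, 2 and 3, and 5116, 3943 and 3346 in the BDNF replicates with these numbers. miR-152-3p had 86.1, 74.8 and 56.9 normalized RPM in the control and 85.9, 69.3 and 52.4 in the BDNF replicates. Both miRNAs were thus highest in the pair numbered 1 and lowest in the pair numbered 3. miR-130b-3p had 10.6, 14.9 and 20.2 normalized RPM in control and 12.5, 16 and 14 in BDNF replicates. miR-301b-3p had 8.78, 13.5 and 15.6 in control and 7.47, 7.86 and 13 in BDNF replicates. For both, the pair numbered 1 was lowest in each condition. miR-130a-3p varied less, with 164, 199 and 208 normalized RPM in control and 174, 188 and 176 in BDNF replicates. The coefficient of variation between control replicates was 25.1% for miR-148b-3p, against 0.475% from counting error alone at its mean of 44335 reads. For miR-301b-3p, with a mean of 127 reads, it was 27.7% against 8.87% from counting.

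Members that share a seed did not always have the most similar profiles. Likeness was measured as the root-mean-square difference of log2 normalized RPM, each miRNA centred on its mean over the 6 samples. Against 335 other tested miRNAs, miR-148a-3p was the third closest to miR-148b-3p with a difference of 0.08, and miR-152-3p was number 21 with 0.13. The median difference to miR-148b-3p over the 335 miRNAs was 0.31. The closest to miR-148b-3p were miR-135a-5p and miR-3068-3p, both at 0.06. For miR-130a-3p the closest were miR-93-5p (0.04) and miR-17-5p (0.05), while its family members miR-301a-3p, miR-130b-3p and miR-301b-3p took places 59, 153 and 275 with 0.13, 0.19 and 0.35. miR-130b-3p and miR-301b-3p, whose hairpins are neighbours, had few reads (means of 168 and 127) and differed by 0.33. The median difference to the 335 other miRNAs was 0.33 for miR-130b-3p and 0.43 for miR-301b-3p. Each had other miRNAs as its closest. These were miR-93-3p and miR-330-3p at 0.09 for miR-130b-3p, and miR-138-2-3p at 0.09 and miR-345-5p at 0.10 for miR-301b-3p. miR-496-3p and miR-340-3p (both 0.06) were closest to miR-301a-3p, miR-26b-5p (0.07) and miR-3559-3p (0.08) to miR-152-3p, and miR-139-5p (0.09) and miR-380-3p (0.10) to miR-148b-5p. The 6 samples share replicate numbers, so the differences describe these libraries.

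No member passed the test for a change with BDNF. With edgeR's quasi-likelihood test, 0 of the 7 had an unadjusted p below 0.05, where 10 of all 336 miRNAs did (2.98%), and 0 of 336 (0%) had an adjusted p below 0.05. The log2 fold changes of the members ran from -0.42 to 0.15, with a median of -0.11, beside a median of 0.00 for all miRNAs tested. Regardless of sign, the median size of the log2 fold change over all 336 miRNAs was 0.09. The direction was shared by all 3 replicate numbers for 4 of the 7 members, where 39.9% of all tested miRNAs had a shared direction. These 4 include miR-301b-3p, which met the 10 RPM limit through the control samples alone. This count and the median over members are therefore a description. For miR-152-3p, among these 4, the BDNF/control ratio in replicate 1 was 0.997, next to no difference. Same-numbered samples deviated alike from their group means, although the study does not state that they come from the same experiment. With the number as a block, 2 of the 7 members, miR-301b-3p and miR-148b-3p, had an unadjusted p below 0.05 in edgeR, beside 69 of 336 miRNAs (20.5%). The first of these entered the test through its higher control level, so the count over members is a description. No adjusted p of a member was below 0.05 in the blocked fit either.

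Among the members, the fold change was largest in size for miR-301b-3p, which was tested because its control mean was over 10 RPM, while its BDNF mean was under it. The mean was 12.6 ± 3.5 normalized RPM without BDNF and 9.45 ± 3.09 with it (SD, n = 3 each), and the groups overlapped. The BDNF/control ratios within replicates 1, 2 and 3 were 0.85, 0.58 and 0.83. Its log2 fold change was -0.42 (SE 0.29), with an unadjusted p of 0.20 and an adjusted p of 0.999 in edgeR. With the replicate block the value was -0.42 (SE 0.14), with an unadjusted p of 0.015 and an adjusted p of 0.17. Without BDNF replicate 3, the sample of that group with the highest level, the log2 fold change was -0.72 and the unadjusted p in edgeR 0.032, whereas without control replicate 3 they were -0.22 and 0.51. It was -0.28 without BDNF replicate 1 and -0.30 without BDNF replicate 2. With the limit lowered to 1 RPM, which both groups pass, it was -0.39 (unadjusted p 0.23 in edgeR without the block). The block was not run with that limit. The counts behind it were low, from 81 to 175 reads per library.

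miR-148b-3p was the single member with a higher mean after BDNF. Its normalized RPM were 3726 ± 934 without and 4135 ± 900 with BDNF (SD, n = 3 each), with ratios of 1.10, 1.04 and 1.21 in replicates 1 to 3. The differences between replicate numbers were larger than those between the treatments, and the groups overlapped. The log2 fold change was 0.15 (SE 0.23, unadjusted p 0.53, adjusted p 0.999 in edgeR) and, with the replicate block, 0.16 (SE 0.07, unadjusted p 0.049, adjusted p 0.24). It depended on which samples entered, as it was -0.015 without control replicate 3 and -0.035 without BDNF replicate 1. The seed partner miR-148a-3p had ratios of 1.03, 0.96 and 1.25 and a log2 fold change of 0.08 (SE 0.20, adjusted p 0.999 in edgeR).

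**Figure D2:**
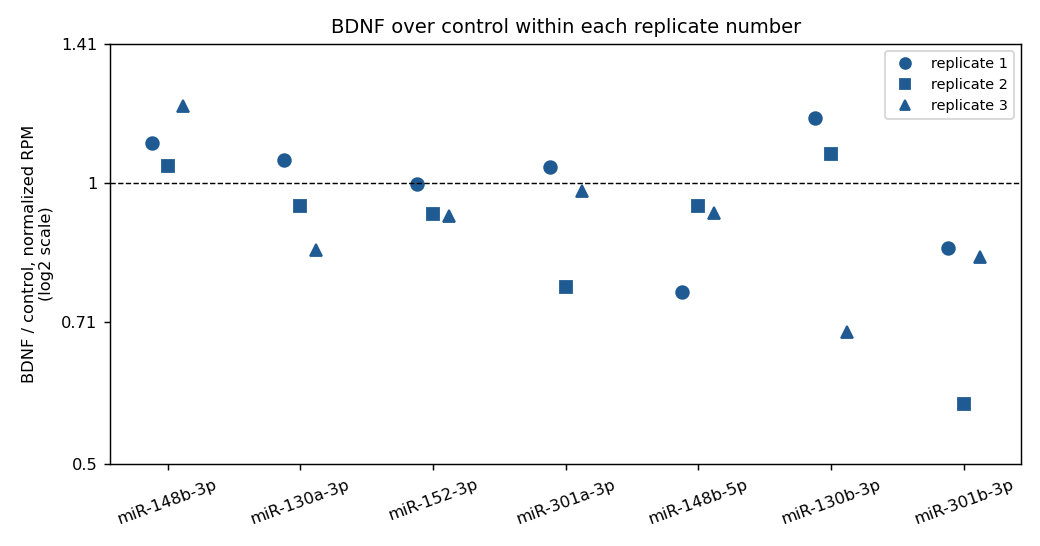
Normalized RPM of the BDNF sample divided by that of its control with the same number, on a log2 axis, for each member and replicate 1 to 3 (dashed line, no difference). The 3 points of miR-148b-3p lie above 1 and those of miR-301b-3p, miR-148b-5p and miR-152-3p below 1, while miR-130a-3p, miR-130b-3p and miR-301a-3p have points on both sides. The replicate 1 point of miR-152-3p, at 0.997, is next to the dashed line.

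miR-148b-5p, the rare arm of the same precursor, had 28.8, 22.8 and 22.9 normalized RPM in control replicates 1, 2 and 3 and 22.1, 21.6 and 21.3 in the BDNF replicates. It was the 1 member of 7 whose groups did not overlap on this scale, where 24 of 336 miRNAs (7.14%) had groups that did not overlap. On plain RPM the groups overlapped, with a lowest control value of 21.8 and a highest BDNF value of 23.1. The log2 fold change was -0.20 (SE 0.14, unadjusted p 0.19, adjusted p 0.999 in edgeR), and an exact two-sided permutation test of its log2 level gave p = 0.1, the smallest value that 3 against 3 samples allow. Control replicate 1 carried most of the difference, as the log2 fold change was -0.05 (unadjusted p 0.65 in edgeR) without it. With the block the unadjusted p was 0.092.

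The means of the remaining 4 members differed by less than the spread between control replicates. miR-130a-3p had 190 ± 23 and 179 ± 7.6 normalized RPM without and with BDNF (SD, n = 3 each), a log2 fold change of -0.08 (SE 0.13), which was -0.15 without control replicate 1 and -0.0048 without control replicate 3. For miR-301a-3p the normalized RPM were 44.0 ± 3.7 and 40.7 ± 3.1 (SD, n = 3 each), with a log2 fold change of -0.11 (SE 0.13), which was -0.05 without control replicate 2 and also without BDNF replicate 2. miR-130b-3p had 15.2 ± 4.8 and 14.2 ± 1.8 normalized RPM (SD, n = 3 each) and a log2 fold change of -0.11 (SE 0.24), which was 0.16 without control replicate 3. miR-152-3p had 72.6 ± 14.7 and 69.2 ± 16.7 normalized RPM (SD, n = 3 each) and a log2 fold change of -0.07 (SE 0.23). It became 0.09 without control replicate 1 and 0.10 without BDNF replicate 3. The adjusted p was 0.999 for each of these in edgeR. Summed over the family, miR-130/miR-301 3p reads stood at 224, 275 and 287 normalized RPM in control and 236, 249 and 246 in BDNF replicates. The miR-19 neighbours in seed gave log2 fold changes of -0.01 (SE 0.16) for miR-19a-3p and -0.13 (SE 0.09) for miR-19b-3p.

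The arms of a precursor are counted in the same library, so that their ratio needs no scaling between libraries. For miR-148b the 3p arm prevailed strongly. Control replicates 1, 2 and 3 held 48041, 45145 and 31035 reads of the 3p arm and 299, 273 and 257 of the 5p arm. The BDNF replicates held 55437, 43151 and 43201 reads of 3p and 239, 236 and 275 of 5p. The 5p share was therefore 0.619% (95% exact Clopper-Pearson interval 0.551 to 0.693%), 0.601% (0.532 to 0.677%) and 0.821% (0.724 to 0.928%) in control replicates. In BDNF replicates it was 0.429% (0.377 to 0.487%), 0.544% (0.477 to 0.618%) and 0.633% (0.560 to 0.712%). These intervals cover counting error only, since reads made by PCR without molecular identifiers are not independent molecules.

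Among 140 precursors whose rarer arm had a mean of at least 10 reads, miR-148b was number 9 in the order from 3p to 5p, with a mean log2(3p/5p) of 7.38 over the 6 libraries. Its neighbours in that order were miR-542 at 7.45 and miR-130a at 7.28. The 3p arm prevailed in all 6 libraries for 60 of the 140 precursors and the 5p arm for 70, while 10 changed. Of all 234 precursors named with both arms, 26 had a larger ratio than miR-148b, and in 18 of these the rarer arm was under 10 reads, where the ratio rests on few counts. miR-148b was thus near the 3p end of the order but not at it.

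Not all members of the families come from the prevailing arm. The 3p arm dominated in miR-130a, where the 5p arm had 9 to 20 reads per library, in miR-152, with 4 to 9 reads of 5p, and in miR-301b, where the 5p arm had 0 to 5 reads. In the 2 control libraries with 0 reads of miR-301b-5p, a count of 0 allows up to 0.239 and 0.289 RPM. In miR-301a the ratio was lower, with a mean log2(3p/5p) of 2.99. miR-130b was the exception. Its 5p arm, shown because it carries most reads of the precursor, is encoded at chr11:97384392-97384413 on the plus strand, again with bases 2 to 8 in capitals.

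miR-130b-5p: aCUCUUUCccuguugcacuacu

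Reads of miR-130b-5p exceeded those of miR-130b-3p 5.87, 4.31 and 3.17 times in control replicates 1, 2 and 3 and 5.66, 4.29 and 5.43 times in the BDNF replicates. The more abundant product of this precursor thus carries a seed other than that of the family. miR-130b-5p had 63.6 ± 1.1 and 71.7 ± 3.9 normalized RPM without and with BDNF (SD, n = 3 each). The ratios within replicates 1, 2 and 3 were 1.13, 1.07 and 1.19, where 39.9% of all tested miRNAs had a shared direction. Its groups did not overlap on this scale, as for 7.14% of tested miRNAs. On plain RPM they overlapped, with a highest control value of 69.3 and a lowest BDNF value of 65.4. Its log2 fold change was 0.17 (SE 0.11, unadjusted p 0.17, adjusted p 0.999 in edgeR). With the block the unadjusted p in edgeR was 0.061.

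**Figure D3:**
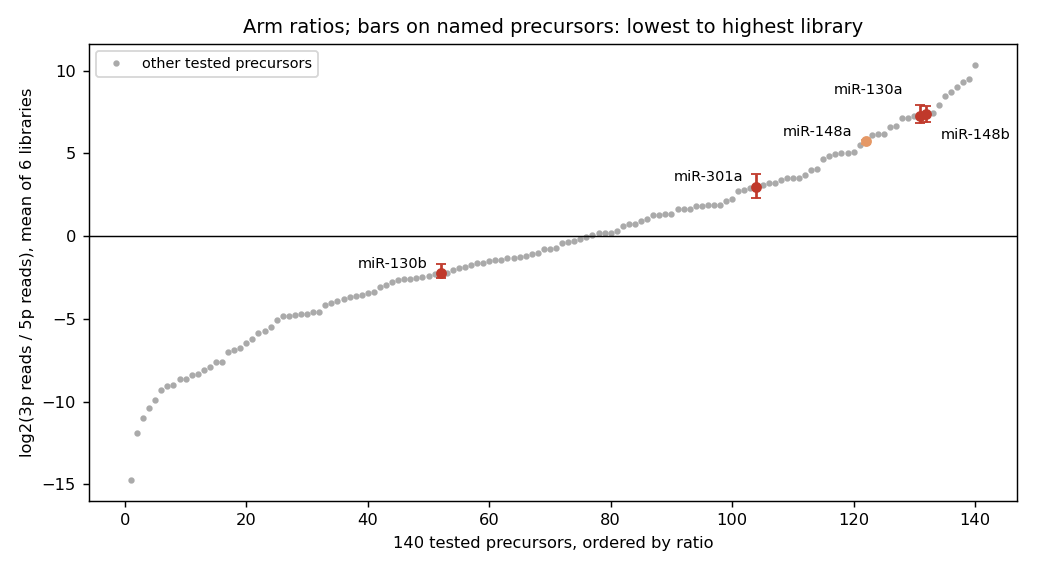
Mean log2(3p reads/5p reads) over the 6 libraries of the 140 tested precursors in increasing order, with the precursors of these families marked and bars from the lowest to the highest library (miR-301b and miR-152, with under 10 reads of 5p, are not plotted). miR-148b and miR-130a lie near the 3p end at 7.38 and 7.28, miR-301a at 2.99, and miR-130b at -2.22 on the 5p side.

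The arm ratio of miR-148b was higher after BDNF in each replicate number, but the difference did not pass the test. There were 161, 165 and 121 reads of 3p per read of 5p in control replicates 1, 2 and 3 and 232, 183 and 157 in the BDNF replicates, and the groups overlapped. The log2 ratio was 7.20 ± 0.25 without and 7.55 ± 0.28 with BDNF (SD, n = 3 each). The difference of 0.35 (SE 0.21) had an unadjusted p of 0.12 and an adjusted p of 0.90 in limma, and the exact permutation test gave p = 0.3. Among all 140 precursors, 6 (4.29%) had an unadjusted p below 0.05 and none an adjusted p below 0.05. With the replicate block the unadjusted p of miR-148b was 0.026 and its adjusted p 0.32 in limma, where 17 of 140 precursors (12.1%) had an unadjusted p below 0.05. The sister precursor miR-148a had a nearly constant ratio, 48.2 to 54.6 in control and 52.7 to 55.6 in BDNF samples, with a difference in log2 of 0.05 (SE 0.14).

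For the other precursors, the difference in log2(3p/5p) was 0.31 (SE 0.38) for miR-130a, -0.24 (SE 0.24) for miR-130b and -0.52 (SE 0.28) for miR-301a. The smallest adjusted p of these was 0.90 in limma. miR-301a had an unadjusted p of 0.10, and with the replicate block of 0.042 (adjusted p 0.35). Its 5p arm had 36 to 83 reads per library. The arms of miR-152 and miR-301b were too rare to be tested.

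The ratio of miR-152-3p to miR-148b-3p, the members with the same seed, was also compared within each library. In control replicates 1, 2 and 3 there were 1.86, 1.98 and 2.06 reads of miR-152-3p per 100 reads of miR-148b-3p, and 1.68, 1.76 and 1.57 in the BDNF replicates. All BDNF values were thus below the control values, although each of these miRNAs alone had overlapping groups. This was 1 of the 21 pairs of members whose ratio did not overlap between the groups. Among all 56280 pairs of the 336 tested miRNAs, 7.34% had groups that did not overlap, so 1 of 21 is not above the background.

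**Figure D4:**
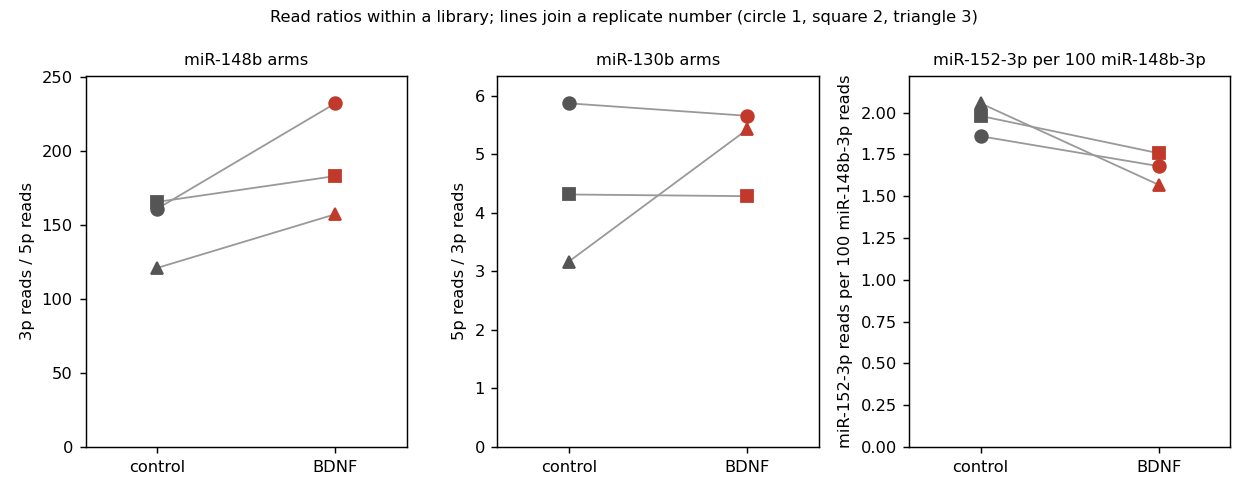
Ratios of reads within each library for the arms of miR-148b (3p/5p), the arms of miR-130b (5p/3p) and miR-152-3p per 100 reads of miR-148b-3p, each axis starting at 0, with lines joining control (grey) and BDNF (red) samples of the same replicate number. The ratio of the miR-148b arms is higher with BDNF along each line with overlapping groups, that of the miR-130b arms differs clearly in replicate 3 alone (3.17 and 5.43), and miR-152-3p per 100 reads of miR-148b-3p lies between 1.57 and 1.76 with BDNF and between 1.86 and 2.06 in control.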

How the data were processed

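The 6 small RNA libraries, 3 control and 3 BDNF, were grouped and numbered by their sample titles. According to the methods, the authors trimmed the adapter, removed reads of low quality or under 15 nucleotides and assigned the rest to rat miRBase v21 with Miraligner (1 mismatch, up to 3 nucleotides trimmed or added). The deposited values are raw read counts per mature miRNA, one file per library. The handling of reads that fit several miRNAs is not given in the sources used here. Levels of different miRNAs are compared as counted, and sequence-dependent cloning efficiency was not tested.

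RPM were computed from the sum of each file, and normalized RPM were further divided by edgeR's TMM factor. All miRNAs averaging 10 RPM or more in either condition were tested with edgeR 4.0.16 (R 4.3.3, quasi-likelihood test, SE from the F statistic), without a replicate block, which the statement of the edgeR analysis does not mention, and p-values were adjusted by Benjamini-Hochberg over all 336. Arm ratios, log2((3p + 0.5)/(5p + 0.5)), were fitted with limma 3.58.1 over all precursors whose rarer arm had at least 10 reads on average. Scripts were checked on simulated counts. DESeq2 1.42.0, other normalizations and filters, limma-trend on log2(RPM + 1), the block and leaving out each sample were alternatives. The block takes same-numbered samples as pairs. Across tested miRNAs, the deviations of same-numbered samples from their group means correlated with r = 0.80, 0.48 and 0.89 for numbers 1 to 3, and the numbers come from the titles. No libraries of one condition agreed within sampling noise (chi-square of at least 147 per degree of freedom). The study describes 3 biological replicates from independent experiments and does not state that same-numbered samples come from the same one.

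The members, lists and tests were chosen with earlier results of these data known. Named besides the members are their opposite arms, miR-148a, miR-19, the neighbours in the order of arm ratios, and the 2 most similar profiles per member. Sequences are from RefSeq (GRCr8), which held 582 of the 649 names.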

Additional observations from a re-analysis of the deposited data

How the results depend on the processing

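All 7 members kept an adjusted p above 0.05 under every alternative run. The number of miRNAs with an unadjusted p below 0.05, 10 as reported, was 6 with library size only, 6 with limma-trend and 69 with the replicate block, and ranged from 3 to 32 when single samples were left out (3 without control replicate 2, 5 without BDNF replicate 2, 6 without control replicate 3 and 32 without control replicate 1). Members past that threshold went from 0 to 2 with the replicate block and ranged from 0 to 1 when single samples were left out (1 without BDNF replicate 3, miR-301b-3p). Both counts include miR-301b-3p, which met the 10 RPM limit through the control samples alone, so they are a description. No miRNA had an adjusted p below 0.05 in any of the 14 alternatives. The log2 difference of the miR-148b arm ratio was 0.35 in each alternative that kept all samples. With the replicate block it passed the unadjusted threshold, and it ranged from 0.20 to 0.48 when single samples were left out. Over the samples left out, log2 fold changes lay from -0.28 to 0.16 (without control replicate 3) for miR-130b-3p, from -0.035 (without BDNF replicate 1; -0.015 without control replicate 3) to 0.36 for miR-148b-3p and from -0.26 to 0.10 (without BDNF replicate 3; 0.09 without control replicate 1) for miR-152-3p, turning sign in 1, 2 and 2 cases. The others kept their sign, from -0.15 to -0.0048 for miR-130a-3p, from -0.15 to -0.05 for miR-301a-3p, from -0.72 to -0.22 for miR-301b-3p and from -0.26 to -0.05 for miR-148b-5p. With no sample left out, no alternative turned the direction of a member. Among the 7 members and the tested arm ratios of their precursors, the block changed 2 kinds of call at the unadjusted threshold. These were the levels of miR-301b-3p and miR-148b-3p and the arm ratios of miR-148b and miR-301a. Counting error alone was 0.475% of the mean for miR-148b-3p and 8.87% for miR-301b-3p, the members with the most and the fewest reads.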
